A study of Homo sapiens with 12 samples.

Results

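The genes that add methyl groups to histone tails, or take them off, were followed in HCT116, a human colon carcinoma cell line, with and without MTHFD2. The set comprised 54 genes chosen by name from the deposited gene count table and grouped by the residue they act on, out of 60648 genes in the table. It held 16 lysine demethylases, 37 methyltransferases and core subunits, and JMJD6. All 54 were expressed: the lowest count of any of them in any library was 371, and all passed the filter on low counts that left 18289 genes for testing. The 12 poly-A selected RNA-seq libraries formed 4 groups of 3: MTHFD2-WT cells and MTHFD2 knock-out (KO) cells, each at an initial and at a final time point. The knock-out was made with CRISPR-Cas9 and came from 1 isolated clone. The initial RNA was taken right after the knock-out had been generated and the final RNA after 2 months in culture. Genotype and clone therefore cannot be told apart, and the p-values measure the spread between libraries of 1 clone and of the parental line.

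Histone lysine methylation is set by SET-domain enzymes (and by DOT1L, which lacks a SET domain) that draw the methyl group from S-adenosylmethionine, and it is removed by FAD-dependent (KDM1A) or by iron- and 2-oxoglutarate-dependent jumonji demethylases. Methylated H3K4 and H3K36 mark active genes and methylated H3K9 and H3K27 mark silenced ones, while H4K20 methylation is tied to chromosome compaction and replication. PRMT enzymes methylate arginines of histones and of many other proteins. MTHFD2 is a mitochondrial enzyme of folate-dependent one-carbon metabolism, the pathway that also feeds methyl groups into the methionine cycle.

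Library totals lay between 38597809 and 40017561 counts, a ratio of 1.037, and libraries of a group correlated at 0.989 to 0.996 across genes on the log2 scale. MTHFD2 was 375 to 457 TMM-scaled CPM (read counts scaled to library size) in the initial and 319 to 379 CPM in the final wild-type libraries, against 128 to 146 and 123 to 155 CPM in the knock-out. The genotypes did not overlap, and the mean difference was -1.48 on the log2(CPM + 1) scale (exact two-sided permutation test within harvests, p = 0.005, 400 relabellings). Reads of the gene remained in the knock-out at a lower level, and the position of the edit is not given in the sources used here. In bulk RNA, fewer cells with a transcript and less of it per cell cannot be told apart, here and in all values that follow. Of 7 markers of colon epithelium 6 passed the filter (VIL1 did not), and their sum was 2620 to 3230 CPM in wild-type initial, 3060 to 3200 in wild-type final, 2470 to 2700 in knock-out initial and 2210 to 2590 CPM in knock-out final libraries. By log2 fold change 5 of the 6 were lower in the knock-out at each harvest. The edgeR quasi-likelihood test (adjusted p under 0.05) called 2 lower initially and 4 finally, against 11.3% and 10.2% of all genes. EPCAM and CDH1 were lower without overlap at both harvests. CDX2 went the other way, with means of 13.4 CPM in wild-type and 15.25 CPM in knock-out initial libraries and 14.49 and 14.63 CPM in the final ones. The 6 fibroblast markers summed to 56.3 to 78.1 CPM in the wild type and 36.5 to 58.0 CPM in the knock-out, nearly all of it COL1A1, with DCN and LUM at 0 in every library. The 6 leukocyte markers summed to 1.16 to 2.31 and 2.52 to 3.25 CPM, with CD3E at 0 throughout, and the 4 endothelial markers to at most 3.46 CPM. The part of these shifts in the results was not tested.

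**Figure D1:**
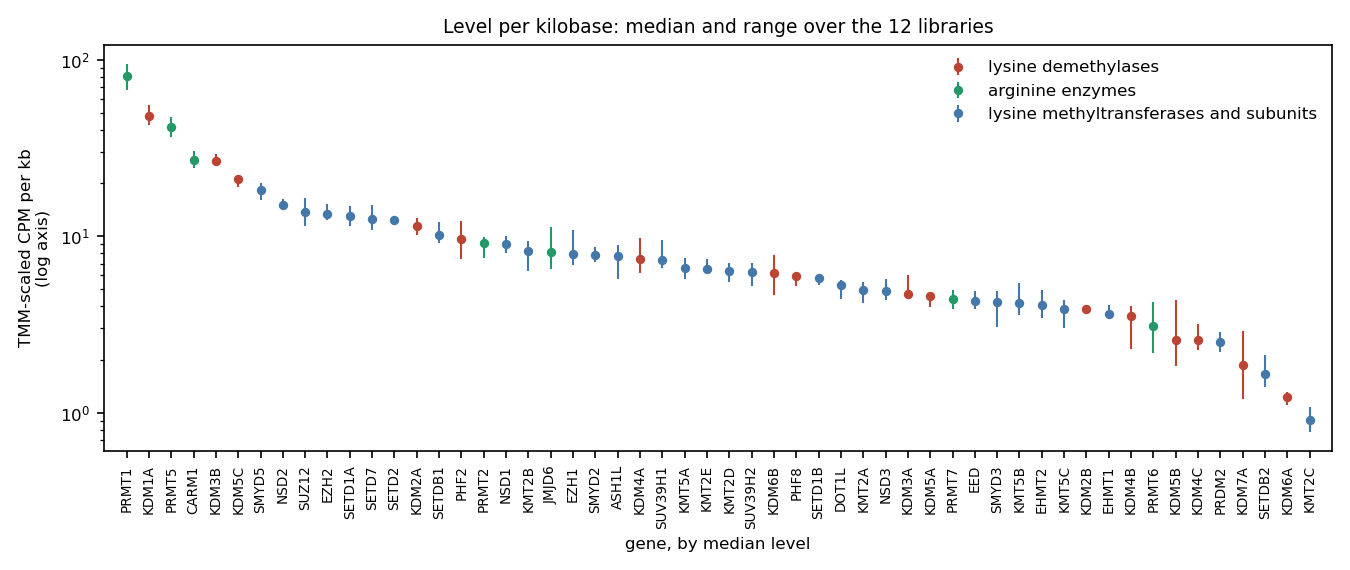
Level of each of the 54 genes in TMM-scaled CPM per kilobase of exon (log axis), as the median (point) and range (line) over the 12 libraries, ordered by the median. PRMT1 stood at the top with 81.2 and KMT2C at the bottom with 0.906 CPM per kb, and the longest lines belong to KDM7A and KDM5B.

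Per kilobase of exon, PRMT1, KDM1A and PRMT5 had the highest levels of the set. PRMT1, which deposits most asymmetric dimethylarginine, had a median of 81.2 CPM per kb over the 12 libraries, KDM1A 47.9 CPM per kb, and PRMT5, the main symmetric arginine methyltransferase, 41.6 CPM per kb. CARM1, which methylates histone H3 arginines at enhancers, and the H3K9 demethylase KDM3B followed at 27.2 and 26.8 CPM per kb. Their library ranges overlapped, so the order of CARM1 and KDM3B was not resolved. EZH2 and SUZ12, the catalytic and a core subunit of Polycomb repressive complex PRC2, had medians of 13.4 and 13.7 CPM per kb with overlapping ranges, whereas EZH1, the alternative catalytic subunit, had 7.91 CPM per kb. At the low end were SETDB2 (1.65 CPM per kb), KDM6A (1.22 CPM per kb) and KMT2C (0.906 CPM per kb). The lengths used for KDM6A (27742 bases) and KMT2C (53322 bases) are the union of all annotated exons in the table, which lowers their per-kilobase values. The median over the 54 genes was 6.44 CPM per kb, against 2.65 over all genes tested. KDM7A and KDM5B varied most over the libraries, with a highest-to-lowest ratio of 2.42 and 2.34.

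Knock-out cells carried less RNA of several demethylases than wild-type cells at both harvests, while most genes of the set, demethylases included, did not pass the test. KDM5B, KDM7A, PHF2, KDM4A and KDM6B were lower and the arginine methyltransferase PRMT6 was higher in the knock-out on both occasions. At the initial harvest 11 of 54 genes were called (edgeR quasi-likelihood test, Benjamini-Hochberg adjusted p under 0.05 over all genes tested), 2 higher and 9 lower, which is 20.4% against 19.9% of all genes tested (8.55% higher, 11.3% lower). At the final harvest 8 of 54 were called, 2 higher and 6 lower, 14.8% against 18.5% (8.38% higher, 10.2% lower). The average genotype difference over both harvests was called for 11 of 54, 3 higher and 8 lower, 20.4% against 30.1% (14.0% higher, 16.1% lower). Called in the same direction at both harvests were 6 of 54 (11.1%), against 10.5% of all genes. The count of called genes at the initial harvest was 19 without wild-type initial replicate 2, and 7 without wild-type initial replicate 3 or without knock-out initial replicate 2. For these fits the share of all genes called is not given here.

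Of the 16 lysine demethylases 6 were called at the initial harvest (5 lower, 1 higher) and 6 at the final harvest (all 6 lower), 37.5% each time against 19.9% and 18.5% of all genes, and 13 and 12 of the 16 had a negative log2 fold change. The median of their log2 fold changes was -0.11 initially and -0.12 finally, against 0.00 and -0.001 for all genes. Of the 37 methyltransferases and core subunits 5 were called at the initial harvest (1 higher, 4 lower) and 2 at the final harvest (both higher), 13.5% and 5.41% against the same shares, with medians of 0.01 and 0.01. Whether the classes differ was not tested. Most changes were small: 50 of the 54 genes differed by less than 0.5 on the log2 scale at each harvest. The ranges of the genotypes did not overlap for 17 genes with lower and 8 with higher values in the initial knock-out, where 18.4% and 17.1% of all genes did so. At the final harvest this held for 14 lower and 9 higher genes, against 17.2% and 15.9%. Over both harvests together 8 genes were lower and 2 higher in every knock-out library than in every wild-type library, against 7.29% and 5.50%.

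**Figure D2:**
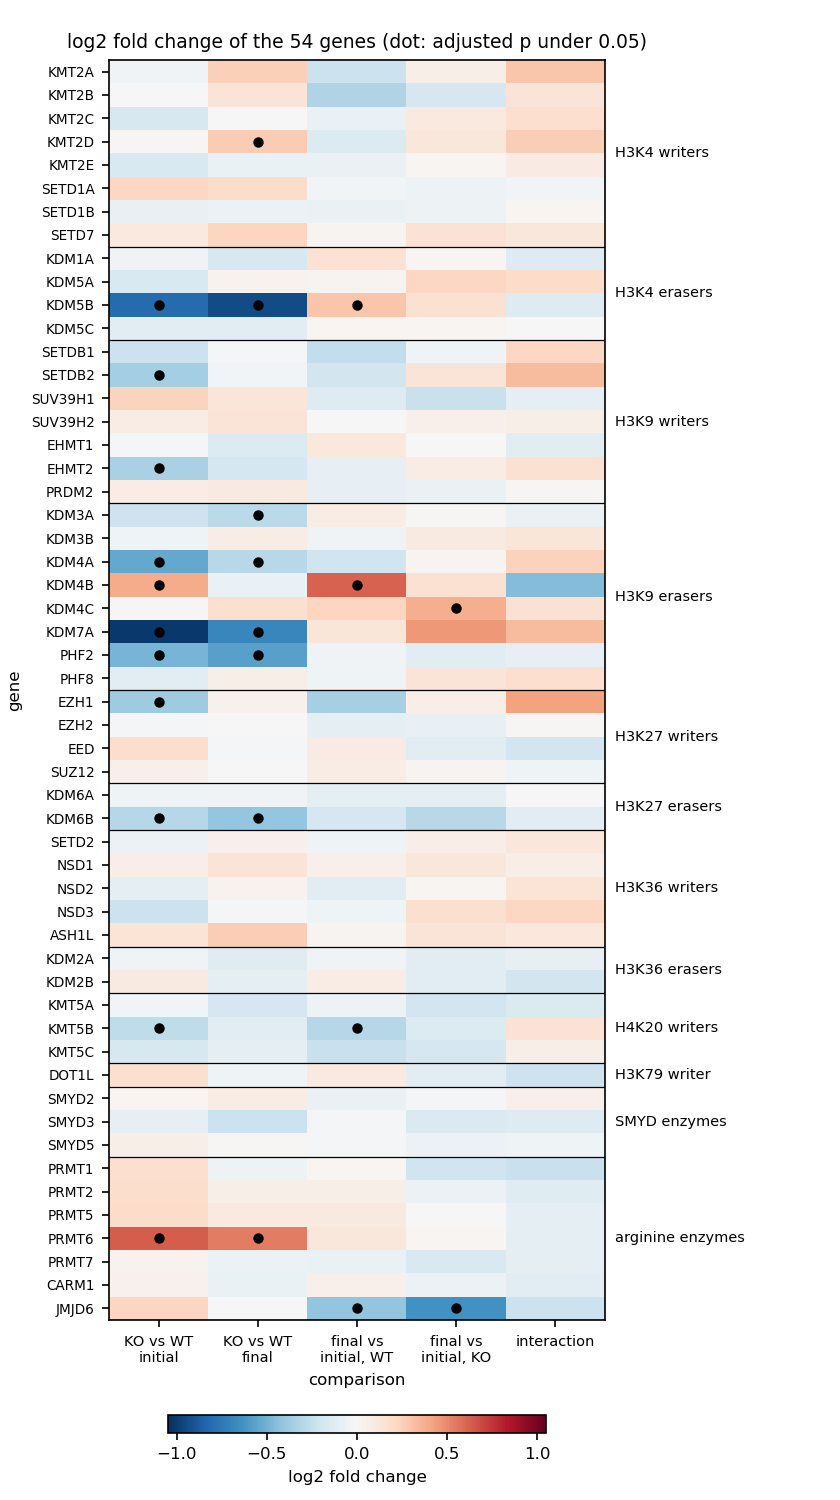
Log2 fold change of the 54 genes (rows, grouped by target residue) in 5 comparisons (columns), with a dot where the adjusted p was under 0.05. Blue cells with dots in both genotype columns mark KDM5B, KDM4A, KDM7A, PHF2 and KDM6B, red ones PRMT6, and the interaction column has no dot.

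The stretches upstream of the start sites of these 6 genes are shown because these are the genes called at both harvests. They are the 250 bases before the RefSeq start (GRCh38.p14; for KDM6B the first of 2 listed starts), written 5′ to 3′ on the gene's own strand. For KDM5B only the 184 bases outside the gene's span in the count table are given. Capitals mark GC boxes (GGGCGG) and CCAAT boxes (CCAAT) on either strand, overlapping matches included.
KDM5B (chr1:202808488-202808671, minus strand): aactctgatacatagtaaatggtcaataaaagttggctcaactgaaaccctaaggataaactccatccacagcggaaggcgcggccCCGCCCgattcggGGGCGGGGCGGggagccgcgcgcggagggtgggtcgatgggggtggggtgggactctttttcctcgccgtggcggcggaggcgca
KDM7A (chr7:140176984-140177233, minus strand): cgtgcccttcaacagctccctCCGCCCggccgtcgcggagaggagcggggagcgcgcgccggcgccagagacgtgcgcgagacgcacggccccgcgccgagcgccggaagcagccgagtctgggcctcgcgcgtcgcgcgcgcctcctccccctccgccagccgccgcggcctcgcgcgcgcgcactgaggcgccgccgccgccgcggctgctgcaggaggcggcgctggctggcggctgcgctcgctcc
PHF2 (chr9:93576334-93576583, plus strand): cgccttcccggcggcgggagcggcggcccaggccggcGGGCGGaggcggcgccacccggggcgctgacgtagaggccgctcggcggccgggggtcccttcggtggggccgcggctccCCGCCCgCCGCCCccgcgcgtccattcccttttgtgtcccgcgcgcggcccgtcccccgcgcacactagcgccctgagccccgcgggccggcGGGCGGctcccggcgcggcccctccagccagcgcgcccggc
KDM4A (chr1:43649899-43650148, plus strand): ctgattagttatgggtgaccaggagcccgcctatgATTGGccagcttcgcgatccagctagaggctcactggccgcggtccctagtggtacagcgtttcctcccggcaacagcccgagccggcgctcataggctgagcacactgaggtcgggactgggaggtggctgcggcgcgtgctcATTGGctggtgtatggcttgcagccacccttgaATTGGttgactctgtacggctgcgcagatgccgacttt
KDM6B (chr17:7833967-7834216, plus strand): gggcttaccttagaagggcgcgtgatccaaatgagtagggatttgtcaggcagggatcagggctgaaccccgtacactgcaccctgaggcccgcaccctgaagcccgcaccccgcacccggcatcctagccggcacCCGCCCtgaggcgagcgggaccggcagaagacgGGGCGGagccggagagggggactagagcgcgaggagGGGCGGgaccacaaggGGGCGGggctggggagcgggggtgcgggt
PRMT6 (chr1:107056424-107056673, plus strand): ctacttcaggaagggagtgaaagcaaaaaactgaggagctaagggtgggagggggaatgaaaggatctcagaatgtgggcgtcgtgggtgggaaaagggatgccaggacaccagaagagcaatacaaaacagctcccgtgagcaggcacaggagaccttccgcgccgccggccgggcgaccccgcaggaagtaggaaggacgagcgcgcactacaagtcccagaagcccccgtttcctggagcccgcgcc
The windows differed in composition. PHF2 and KDM7A were the most G+C-rich with 84.8% and 81.6%, and PRMT6 (60.4%) and KDM4A (61.2%) the least. The median was 64.4% for the listed starts of all tested genes and 68.8% for those of the set. The 250 bases of KDM5B held 3 GC boxes and those of PHF2 and KDM6B 4 each, KDM7A held 1, and KDM4A held 3 CCAAT boxes and no GC box. The PRMT6 window held neither. RefSeq entries were found for 50 of the 54 genes (SETD1B, NSD3, DOT1L and JMJD6 had none). Below, a gene counts as holding a motif if the window of any of its listed starts did. There were 73 starts for the 50 genes and 17397 for the 12081 tested genes with an entry. A GC box occurred in 40 of the 50 (80%), against 72.2% of 12081 tested genes with an entry, and a CCAAT box in 21 (42.0% against 40.7%). The E2F-type motif TTTNNCGC occurred in 18% against 10.8%, the E-box CACGTG in 14.0% against 10.9% and the cyclic AMP response element TGACGTCA in 4.0% against 3.3%. TGATGNAA, the composite C/EBP-ATF element, was found for none of the 50 genes and for 2.3% of the 12081. These are matches of letters and not sites of binding.

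Among the H3K4 enzymes of the set, KDM5B was the 1 called at both harvests. KDM5B (ENSG00000117139.18, GRCh38 chromosome 1, 202724495 to 202808487, minus strand) removes methyl groups from di- and trimethylated H3K4. It had 85.2, 73.7 and 90.02 CPM in wild-type initial, 108, 94.5 and 103 CPM in wild-type final, 46.8, 49.1 and 46.1 CPM in knock-out initial and 52.1, 51.7 and 55.1 CPM in knock-out final libraries. Every knock-out library lay below every wild-type library. KDM5B fell by 0.81 ± 0.09 (log2 fold change ± SE) at the initial harvest, a 1.75-fold lower level (adjusted p = 3.85e-06), and by 0.94 ± 0.08 at the final harvest, 1.92-fold lower (adjusted p = 6.06e-07). Both calls held under all 20 alternative settings.

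The other H3K4 demethylases of the set, KDM1A, KDM5A and KDM5C, were not called at either harvest. KDM1B, which is not in the set, was lower at both and is given below with the related genes. Of the 8 H3K4 methyltransferases, KMT2D, which methylates H3K4 at enhancers, was called once. It had 146, 139 and 146 CPM in the wild-type final libraries and 172, 179 and 169 CPM in the knock-out final libraries, which did not overlap. The difference was 0.27 ± 0.08 (log2, adjusted p = 0.0256), and the call was lost without the filter on low counts and when any knock-out final library or wild-type final replicate 2 or 3 was left out. SETD1A, a catalytic subunit of the SET1 complexes that trimethylate H3K4 at promoters, had 74.7 to 84.3 CPM over the 6 wild-type and 86.5 to 96.5 CPM over the 6 knock-out libraries. These ranges did not overlap, and the average difference over both harvests was 0.21 ± 0.05 (log2, adjusted p = 0.00715), while neither harvest alone was called. The log2 fold changes of the 8 writers lay between -0.17 and 0.22 at the initial and between -0.07 and 0.27 at the final harvest.

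**Figure D3:**
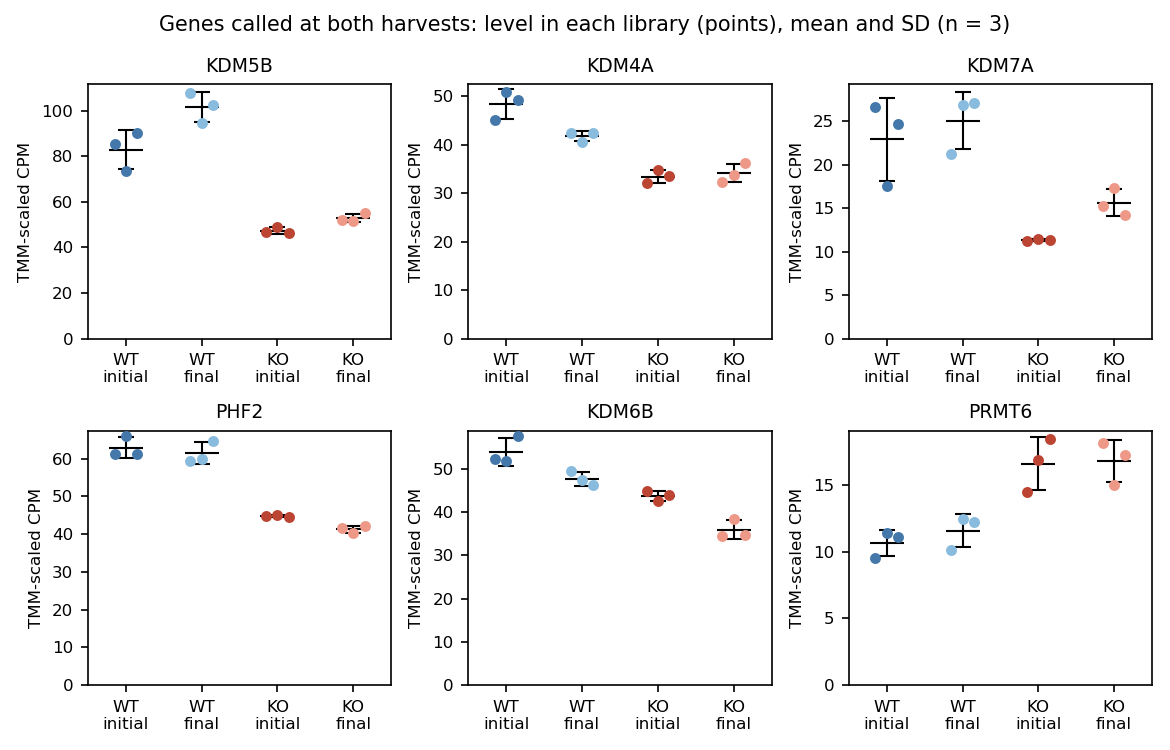
TMM-scaled CPM of the 6 genes called at both harvests, 1 point per library, with the group mean and SD (bars, n = 3) for wild type (WT, blue) and knock-out (KO, red). KDM5B lies at 73.7 to 108 CPM in wild-type and at 46.1 to 55.1 CPM in knock-out libraries, and PRMT6 is the panel in which the knock-out is the higher genotype.

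Of the 8 H3K9 demethylases 4 were called at the initial harvest (3 lower, 1 higher) and 4 at the final one (all lower), against 19.9% and 18.5% of all genes. KDM7A (ENSG00000006459.11, GRCh38 chromosome 7, 140084746 to 140176983, minus strand) demethylates dimethylated H3K9 and H3K27. It had 26.6, 17.5 and 24.6 CPM in wild-type initial, 21.3, 26.8 and 27.1 CPM in wild-type final, 11.2, 11.4 and 11.4 CPM in knock-out initial and 15.2, 17.3 and 14.2 CPM in knock-out final libraries. All knock-out libraries were below all wild-type libraries, by the least margin between knock-out final replicate 2 and wild-type initial replicate 2. KDM7A fell by 1.01 ± 0.14 at the initial harvest (2.02-fold lower, adjusted p = 6.97e-05) and by 0.68 ± 0.14 at the final harvest (1.61-fold lower, adjusted p = 0.00202).

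PHF2 (ENSG00000197724.11, GRCh38 chromosome 9, 93576584 to 93679587, plus strand), a KDM7-family demethylase of dimethylated H3K9, had 61.2, 66.0 and 61.3 CPM in wild-type initial, 59.5, 59.9 and 64.7 CPM in wild-type final, 44.8, 45.0 and 44.5 CPM in knock-out initial and 41.6, 40.3 and 42.0 CPM in knock-out final libraries. The genotypes stood well apart, with a tight spread in the knock-out. PHF2 fell by 0.49 ± 0.07 (adjusted p = 0.00012) and by 0.57 ± 0.07 (adjusted p = 2.45e-05) at the initial and final harvest. The calls of KDM7A and PHF2 at both harvests held under all 20 alternative settings. PHF8, the third member of their family, was not called at either harvest.

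The KDM4 demethylases of trimethylated H3K9 and H3K36 did not move together. KDM4A (ENSG00000066135.13, GRCh38 chromosome 1, 43650149 to 43705518, plus strand) had 45.0, 50.9 and 49.3 CPM in wild-type initial, 42.5, 40.6 and 42.4 CPM in wild-type final, 32.0, 34.8 and 33.5 CPM in knock-out initial and 32.4, 33.9 and 36.1 CPM in knock-out final libraries. Again no knock-out library reached the wild-type range. KDM4A fell by 0.53 ± 0.08 at the initial (adjusted p = 0.000127) and by 0.29 ± 0.08 at the final harvest (adjusted p = 0.015). The final call was lost without wild-type final replicate 3 and without knock-out final replicate 1, with a largest adjusted p of 0.0705 over its alternatives.

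KDM4B went the other way in the initial libraries. It had 33.9, 38.7 and 41.8 CPM in wild-type initial, 56.7, 59.1 and 59.3 CPM in wild-type final, 49.7, 52.3 and 47.4 CPM in knock-out initial and 52.3, 55.9 and 58.4 CPM in knock-out final libraries. The wild-type initial libraries were the low group, and the other groups lay close together. KDM4B was 0.39 ± 0.09 higher (log2, adjusted p = 0.004) in the initial knock-out libraries and -0.07 ± 0.08 (adjusted p = 0.632) at the final harvest. KDM4C was not called in either genotype comparison.

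KDM3A, a demethylase of mono- and dimethylated H3K9 that is known to respond to hypoxia, had 74.1, 71.6 and 80.3 CPM in the wild-type final and 60.5, 63.1 and 62.3 CPM in the knock-out final libraries, without overlap. It fell by 0.28 ± 0.09 (adjusted p = 0.0341) there, a call that was lost with upper-quartile scaling and without any of the 3 knock-out final libraries, wild-type final replicate 3 or knock-out initial replicate 2.

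The H3K9 methyltransferases were called only at the initial harvest and only downward, 2 of 7. That is 28.6% initially and 0% finally, against 19.9% and 18.5% of all genes (11.3% and 10.2% lower). EHMT2, also known as G9a, the dimethylating enzyme of euchromatin, had 30.5, 32.9 and 36.2 CPM in wild-type initial and 26.5, 26.9 and 25.1 CPM in knock-out initial libraries, without overlap. It fell by 0.34 ± 0.09 (adjusted p = 0.00999), a call lost without wild-type initial replicate 3 (largest adjusted p 0.0634). Over both harvests its average log2 fold change was -0.27 ± 0.06 (adjusted p = 0.00361). SETDB2 had 14.2, 10.7 and 13.9 CPM in wild-type initial and 10.9, 9.30 and 10.2 CPM in knock-out initial libraries, which overlapped, and fell by 0.36 ± 0.11 (adjusted p = 0.0344). That call was lost in 5 of 20 alternatives. SUV39H1, SUV39H2, SETDB1, EHMT1 and PRDM2 were not called. For no gene of the set was a change of the genotype difference between harvests called.

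On the H3K27 side the demethylase KDM6B changed at both harvests. KDM6B (ENSG00000132510.11, GRCh38 chromosome 17, 7834217 to 7854796, plus strand), also known as JMJD3, removes methyl groups from di- and trimethylated H3K27. It had 52.3, 51.9 and 57.6 CPM in wild-type initial, 49.4, 47.5 and 46.2 CPM in wild-type final, 44.9, 42.6 and 44.1 CPM in knock-out initial and 34.5, 38.5 and 34.8 CPM in knock-out final libraries. All knock-out libraries were below all wild-type libraries, closest between knock-out initial and wild-type final. KDM6B fell by 0.30 ± 0.08 (adjusted p = 0.0113) and by 0.41 ± 0.08 (adjusted p = 0.00122). The initial call was lost without wild-type initial replicate 3 and without knock-out initial replicate 2 (largest adjusted p 0.0691).

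KDM6A, the other demethylase grouped under H3K27, was not called. KDM7A, which also acts on H3K27, was grouped above with the H3K9 enzymes and was lower at both harvests. Of the PRC2 genes EZH2, EED, SUZ12 and EZH1, only EZH1 was called, and only at the initial harvest. EZH1 had 75.9, 61.3 and 66.0 CPM in wild-type initial and 58.1, 51.0 and 47.8 CPM in knock-out initial libraries, and fell by 0.37 ± 0.11 (adjusted p = 0.0217). Its ranges were apart, but the call was lost without wild-type initial replicate 1, knock-out initial replicate 2 or knock-out initial replicate 3. At the final harvest the 4 PRC2 genes differed by -0.02 to 0.05 on the log2 scale.

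The KDM4 genes also act on H3K36 and were grouped above with the H3K9 enzymes. There KDM4A was lower at both harvests, KDM4B higher at the initial one and KDM4C not called. Of the genes grouped under H3K36, the methyltransferases SETD2, NSD1, NSD2, NSD3 and ASH1L were not called at either single harvest. Nor were the demethylases KDM2A and KDM2B. The smallest adjusted p at the initial harvest belonged to NSD3 (-0.23 ± 0.08, adjusted p = 0.0674) and at the final harvest to ASH1L (0.26 ± 0.10, adjusted p = 0.085). Averaged over both harvests ASH1L, which dimethylates H3K36, was 0.20 ± 0.07 higher in the knock-out (adjusted p = 0.0375), but wild-type initial replicate 2 had 79.1 CPM where the other wild-type libraries had 94.9 to 106 CPM, and 8 of 19 alternatives, that replicate's removal among them, ended the call.

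Among the H4K20 enzymes, KMT5B, which di- and trimethylates H4K20, had 43.3, 40.6 and 46.9 CPM in wild-type initial, 32.7, 36.5 and 37.2 CPM in wild-type final, 35.6, 35.9 and 37.1 CPM in knock-out initial and 33.7, 33.6 and 31.0 CPM in knock-out final libraries. Wild-type initial was the high group. KMT5B fell by 0.27 ± 0.08 in the initial knock-out libraries (adjusted p = 0.0292), lost in 6 of 20 alternatives, among them the removal of any knock-out initial library. The monomethylating KMT5A and the related KMT5C were not called. The H3K79 methyltransferase DOT1L had 0.17 ± 0.09 (adjusted p = 0.226) and -0.05 ± 0.09 (adjusted p = 0.785), and SMYD2, SMYD3 and SMYD5 were not called either. SMYD5 had the smallest adjusted p of the SMYD genes at the initial harvest (0.06 ± 0.09, adjusted p = 0.668) and SMYD3 at the final harvest (-0.22 ± 0.13, adjusted p = 0.255).

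Of the 7 arginine enzymes, PRMT6 was the 1 called between genotypes (14.3% at each harvest, against 19.9% and 18.5% of all genes). PRMT6 (ENSG00000198890.9, GRCh38 chromosome 1, 107056674 to 107067636, plus strand) deposits asymmetric dimethylarginine on H3R2, a mark that counteracts H3K4 trimethylation. It had 9.52, 11.4 and 11.1 CPM in wild-type initial, 10.1, 12.4 and 12.2 CPM in wild-type final, 14.5, 16.9 and 18.4 CPM in knock-out initial and 18.1, 15.0 and 17.2 CPM in knock-out final libraries. Every knock-out library was above every wild-type library. PRMT6 rose by 0.64 ± 0.12 (1.56-fold, adjusted p = 0.00108) and by 0.54 ± 0.12 (1.45-fold, adjusted p = 0.0041), and both calls held under all 20 alternatives. PRMT1, PRMT2, PRMT5, PRMT7, CARM1 and JMJD6 were not called between genotypes.

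Few of the 54 genes differed between the initial harvest and the one after 2 months of culture. Time in culture and any other difference between the harvests cannot be told apart. In the wild type 4 were called between harvests, 2 higher and 2 lower in the final libraries (7.41%, against 6.47% of all genes, 3.05% higher and 3.42% lower). In the knock-out 2 were called, 1 higher and 1 lower (3.7%, against 1.48% of all genes, 0.837% higher and 0.640% lower). JMJD6, a jumonji protein known as a lysyl hydroxylase of splicing factors and reported to demethylate arginines, fell in both genotypes. It had 51.8, 61.7 and 52.6 CPM in wild-type initial, 44.8, 40.7 and 39.4 CPM in wild-type final, 64.2, 62.3 and 67.4 CPM in knock-out initial and 43.5, 38.9 and 42.2 CPM in knock-out final libraries. Final libraries were below initial ones throughout, and the genotypes overlapped at the final harvest. JMJD6 fell by 0.64 ± 0.09 in the knock-out (adjusted p = 0.000971), a call held under all 20 alternatives, and by 0.41 ± 0.09 in the wild type (adjusted p = 0.00887), a call lost in 3 of 20, with only the 2 wild-type groups fitted (largest adjusted p 0.0674) and without wild-type final replicate 2 or 3.

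The remaining calls over time were spread over H3K9, H3K4 and H4K20 enzymes. KDM4B, with the values given above, rose by 0.62 ± 0.09 in the wild type (1.53-fold, adjusted p = 0.000324) and held under all 20 alternatives. In the knock-out it differed by 0.16 ± 0.09 (adjusted p = 0.412). KMT5B fell by 0.30 ± 0.08 in the wild type (adjusted p = 0.0396) and KDM5B rose by 0.29 ± 0.08 (adjusted p = 0.0481), but these calls were lost in 11 and in 16 of 20 alternatives, removals of single libraries of all 4 groups among them for KDM5B. KDM4C had 23.6, 24.2 and 26.1 CPM in wild-type initial, 29.6, 27 and 29.6 CPM in wild-type final, 23.7, 25.7 and 25.3 CPM in knock-out initial and 31.4, 32.9 and 33.0 CPM in knock-out final libraries. The final libraries lay above the initial ones in both genotypes. KDM4C rose by 0.38 ± 0.08 in the knock-out (adjusted p = 0.0224), a call lost when any 1 of the 6 knock-out libraries was removed.

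With only the 2 groups compared in the fit, 1 gene of the set was called over time in the wild type, and leaving out single libraries gave 1 to 6. In the knock-out DESeq2 called 4, adding KDM5A and KDM6B. Beside these alternative counts the share of all genes called is not given here. The genotype difference itself was tested for a change between harvests by the interaction term. No gene of the set was called by edgeR (0 of 54, against 1.28% of all genes). An unadjusted p under 0.05 was found for 5 (KMT2A, KMT2D, KDM4A, KDM4B and EZH1). The share of all genes under that unadjusted threshold is not given here. KDM4B came nearest with -0.46 ± 0.12 (adjusted p = 0.0881), and DESeq2 called it alone (adjusted p = 0.0217).

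**Figure D4:**
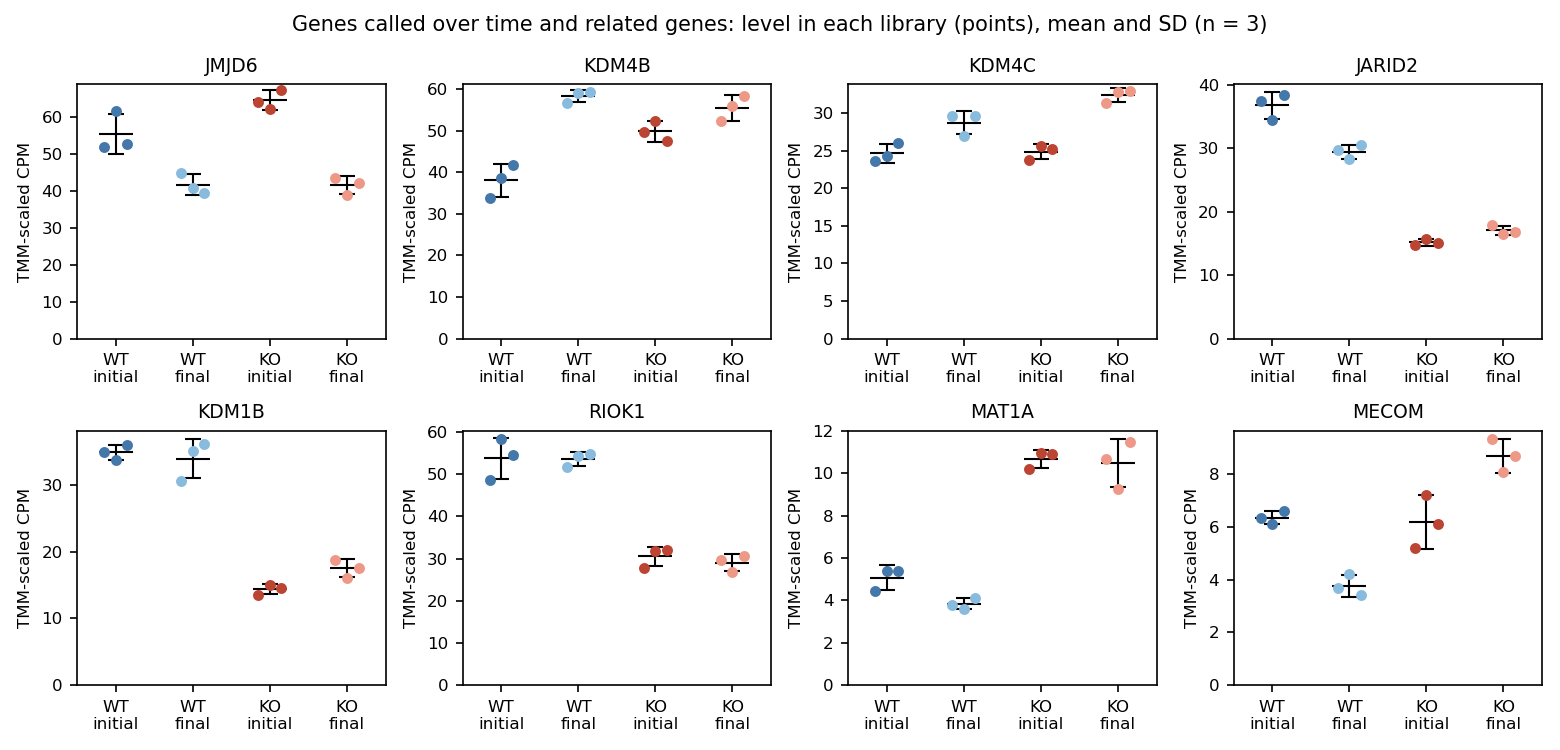
TMM-scaled CPM of 3 genes of the set called over time (JMJD6, KDM4B, KDM4C) and of 5 related genes (JARID2, KDM1B, RIOK1, MAT1A, MECOM), 1 point per library, with the group mean and SD (bars, n = 3). JMJD6 falls to 38.9 to 44.8 CPM at the final harvest in both genotypes, and JARID2, KDM1B and RIOK1 are separated by genotype.

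The balance between paralogs was read as their ratio within each library, and the genotypes did not overlap for 7 of 24 pairs. These ratios use the same counts as the tests above and are given as a description, on the log2 scale of per-kilobase levels. No share was computed over pairs of other genes. For single genes, 12.8% of all tested did not overlap over both harvests. Except for SETD1A to SETD1B, each of the 7 pairs holds a gene called at both harvests, so the count largely repeats those calls. The ratio of KDM5A to KDM5B was 0.36 to 0.54 in wild-type initial and 0.12 to 0.26 in wild-type final libraries, against 1.06 to 1.11 and 1.06 to 1.22 in the knock-out. Every knock-out library lay above every wild-type library. Which of the pair is the more abundant depends on the exon lengths used (12029 bases for KDM5A and 24899 for KDM5B), while the shift between genotypes does not. KDM5B to KDM5C was -2.845 to -2.358 in the wild type and -3.456 to -3.215 in the knock-out. The ratio of PHF8 to KDM7A rose from 0.99 to 1.65 over the wild-type to 1.74 to 2.26 over the knock-out libraries, and that of PHF2 to PHF8 was 0.86 to 1.06 and 0.28 to 0.66.

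KDM4A to KDM4C was 1.51 to 2.07 in the wild type and 1.04 to 1.43 in the knock-out, with the lower values of each genotype at the final harvest. KDM6A to KDM6B was -2.60 to -2.38 in the wild type and -2.33 to -1.96 in the knock-out. KDM6B was also above KDM6A in plain counts in every library, while the size of the ratio depends on the lengths used. SETD1A to SETD1B was 0.98 to 1.09 and 1.24 to 1.43. The genotypes overlapped for the other 17 pairs, among them EZH1 to EZH2, KMT2A to KMT2B, KDM2A to KDM2B and KMT5B to KMT5C.

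**Figure D5:**
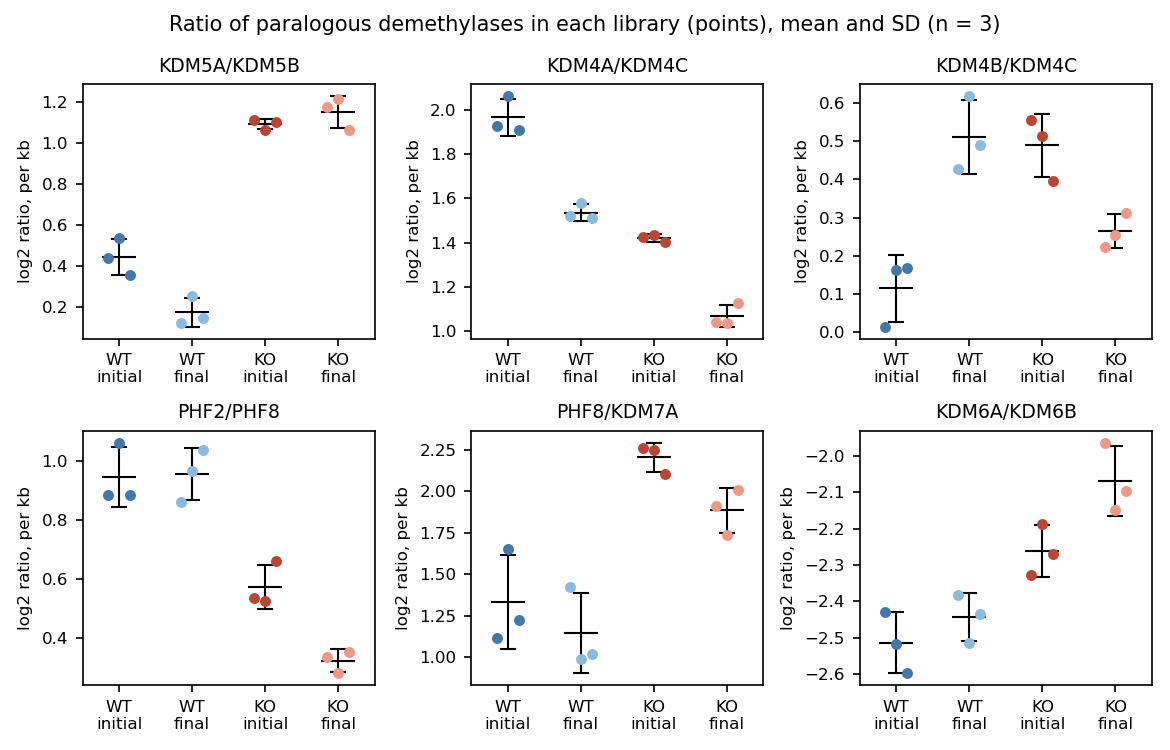
Log2 ratio of the per-kilobase levels of 6 demethylase pairs in each library (points), with the group mean and SD (bars, n = 3). The ratio of KDM5A to KDM5B lies at 0.12 to 0.54 in the wild type and at 1.06 to 1.22 in the knock-out, while KDM4B to KDM4C overlaps between genotypes.

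The partners of these enzymes were read from 7 lists of 75 genes, of which 69 passed the filter on low counts. At the initial harvest 12 of the 69 were called (4 higher, 8 lower; 17.4%) and at the final harvest 15 (7 higher, 8 lower; 21.7%), against the 19.9% and 18.5% of all genes given above. In the average over both harvests 19 were called (8 higher, 11 lower; 27.5%), against 30.1%. Of the 12 COMPASS subunits, which serve the H3K4 methyltransferases, HCFC1 (0.30 ± 0.06, adjusted p = 0.00089) and WDR5 (0.17 ± 0.05, adjusted p = 0.0192) were higher in the average over both harvests and 10 were not called. That is 16.7%, against 30.1% of all genes. The WDR5 call was lost in 5 of 19 alternatives, among them the removal of replicate 3 of either wild-type group. Of 7 tested PRC2 cofactors JARID2 was lower and PHF19 higher (0.28 ± 0.06, adjusted p = 0.00221), 28.6% of the list against the same 30.1%. PHF19 is a Polycomb-like subunit that binds H3K36-methylated chromatin.

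Of 11 H3K9 readers and partners ATF7IP, a cofactor of SETDB1, was the 1 called (-0.25 ± 0.07, adjusted p = 0.0171), a call lost without wild-type initial replicate 3 (adjusted p = 0.0567). The share called was 9.09%, against 30.1% of all genes. Of 10 partners of KDM1A in the CoREST complex 5 were called over both harvests, 4 of them lower, where 30.1% of all genes were called and 16.1% were lower, led by the reader of unmethylated H3K4 PHF21A (-0.37 ± 0.06, adjusted p = 8.69e-05). RCOR2, a CoREST scaffold, was higher (0.19 ± 0.06, adjusted p = 0.0258), a call lost in 7 of 19 alternatives, among them the removal of wild-type initial replicate 1, wild-type final replicate 2 or 3, knock-out initial replicate 1 or 2 or knock-out final replicate 3.

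In the list of methyl donor supply 4 of 9 tested genes were called over both harvests, 2 in each direction, against 30.1% of all genes. MAT1A, which encodes the methionine adenosyltransferase typical of liver, had 4.42, 5.41 and 5.41 CPM in wild-type initial, 3.799, 3.60 and 4.11 CPM in wild-type final, 10.2, 10.95 and 10.9 CPM in knock-out initial and 10.7, 9.28 and 11.5 CPM in knock-out final libraries. The genotypes were far apart, at 1.26 ± 0.08 (2.40-fold higher, adjusted p = 7.03e-09). MAT2A, the form of most other tissues, had 467 to 692 CPM and was not called. ADK, the adenosine kinase that clears a product of the methylation cycle, fell by 0.61 ± 0.09 (adjusted p = 4.99e-05).

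The largest decreases among the related genes lay on the short arm of chromosome 6. JARID2, a PRC2 cofactor, had 37.6, 34.4 and 38.4 CPM in wild-type initial, 29.7, 28.3 and 30.5 CPM in wild-type final, 14.7, 15.8 and 15.0 CPM in knock-out initial and 17.8, 16.5 and 16.9 CPM in knock-out final libraries, and fell by 1.28 ± 0.08 and by 0.79 ± 0.08 (adjusted p = 1.27e-08 and 2.35e-06). KDM1B, the H3K4 demethylase related to KDM1A, fell by 1.28 ± 0.09 and by 0.96 ± 0.09 (adjusted p = 5.5e-08 and 9.93e-07). RIOK1, a substrate adaptor of PRMT5, fell by 0.82 ± 0.09 and by 0.89 ± 0.09 (adjusted p = 5.92e-06 and 2.26e-06).

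Their neighbours were lower as well. Neighbours were counted only if tested and with an average log2 CPM of at least 1. The 4 such genes within 1 Mb of JARID2 had median log2 fold changes of -1.18 and -1.02 at the initial and final harvest. For the 8 near KDM1B it was -1.06 and -1.14, and for the 8 near RIOK1 -1.03 and -1.07. Every one of these neighbours was below 0 at both harvests. Around the 6 genes of the set called at both harvests the neighbours lay near 0: their median was 0.02 and -0.06 for KDM5B, -0.04 and -0.04 for KDM7A, 0.15 and 0.11 for PHF2, 0.06 and -0.07 for KDM4A and 0.07 and -0.004 for KDM6B. PRMT6 had no neighbour above that level in the window. EHMT2, also on the short arm of chromosome 6, had neighbours at -0.09 and -0.11.

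Reads shared between genes limit some of these values. The spans of 40 of the 54 genes overlap another annotated gene, for 33 of them one on the other strand, and the strand setting of the counting is not given in the sources used here. KDM5B, KDM4A and EZH1 have an overlapping gene on each strand and KDM7A and PHF2 one on their own strand, whereas KDM6B, PRMT6, KDM4B, KDM3A and KMT5B have none. How reads that match several places were counted is not given either, so reads shared between close paralogs of the KMT2, KDM4, KDM5, EZH and SETDB families are uncertain.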

How the data were processed

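The authors deposited 1 table of raw counts per gene for all 12 libraries. Reads were aligned with STAR to hg38 and counted with featureCounts of the Subread package, per the submitters' processing notes. The strand setting, the treatment of reads with several matches and the annotation release are not given in the sources used here. Of 60648 genes 60506 received a symbol by Ensembl ID with the version dropped. 5 broken lines, which hold 1 gene record, were left out. Genes were kept by edgeR's filterByExpr, scaled by TMM and fitted over all 12 libraries by edgeR's quasi-likelihood test (edgeR 4.0.16, R 4.3.3). The contrasts were genotype at each harvest and averaged over both, time in each genotype, and the interaction. P-values were adjusted by Benjamini-Hochberg over all 18289 genes tested and called under 0.05. The scripts were tested on simulated data. Values per kilobase divide CPM by the exon length in the table, and paralog ratios carry no test. MTHFD2 was tested by exact permutation of genotype within harvests. Values per library are given for genes called in the same direction at both harvests or over time, up to 6 per comparison, and for other named calls. From each partner list the 2 genes of smallest adjusted p were named; other partners were named after their values were seen. Members and lists were chosen with earlier results of these data known. Alternatives were DESeq2 1.42.0, RLE and upper-quartile scaling, no low-count filter, non-robust dispersions, only the groups compared, a GC correction, a replicate block and leaving out each library. The labels call the 3 libraries of a group biological replicates.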

Additional observations from a re-analysis of the deposited data

Results flagged for a closer look

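The genotype difference of MECOM, which encodes a zinc-finger protein with a PR/SET domain, differed between harvests. Its interaction term was 1.24 ± 0.18 on the log2 scale (edgeR's quasi-likelihood test, adjusted p = 0.00172), and it stayed under 0.05 in 19 of 19 alternatives. MECOM had 6.33, 6.10 and 6.61 CPM in wild-type initial, 3.66, 4.22 and 3.42 CPM in wild-type final, 5.20, 7.22 and 6.12 CPM in knock-out initial and 9.33, 8.06 and 8.69 CPM in knock-out final libraries. The genotypes overlapped at the initial harvest and stood apart at the final one.

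The genotype difference of JARID2 was also called as differing between harvests, with an interaction of 0.49 ± 0.11 (adjusted p = 0.0458). That call was lost in 12 of 19 alternatives, with adjusted p-values from 0.00411 to 0.174 over the alternatives. The call was lost without the filter on low counts, with a replicate block, and when any of the 6 knock-out libraries, wild-type initial replicate 1 or 3, or wild-type final replicate 2 or 3 was left out.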

How the results depend on the processing

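Of 1494 values of single genes computed under alternatives, 1325 kept their direction and side of the threshold, 169 lost the call and 0 changed sign. Only genes and comparisons already called in the main fit entered this count, which left little room for a change of sign. Leaving out 1 library gave 7 to 19 called genes of the 54 between genotypes initially, 5 to 10 finally (5 without wild-type final replicate 3 or knock-out final replicate 1), 10 to 16 for the average over both harvests, 1 to 6 for time in the wild type, 1 to 4 for time in the knock-out (1 without any of its 6 libraries) and 0 to 0 for the interaction. With only the groups compared in the fit, time in the wild type gave 1 gene and time in the knock-out 4. DESeq2 gave 4 for time in the knock-out and 1 for the interaction. The matching share of all genes called under each alternative is not given here. The causes of these differences in count were not tested. The lowest count of any of the 54 genes was 371.

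With the replicate number as a block, 11 genes were called between genotypes initially, 8 finally, 11 for the average, 3 and 2 for time in the wild type and the knock-out and 0 for the interaction. Shares of all genes called with this block are not given here. The labels do not say whether the numbers pair the libraries. Deviations of same-numbered libraries correlated at -0.358 to 0.238, with 6 of 18 pairs over 0.1. Those of different-numbered libraries correlated at -0.427 to 0.388, with 7 of 36 pairs over 0.1. Whether the 2 kinds of pair differ was not tested.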

Other observations

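Further genes of the related lists passed the test and were chosen for mention after their values were seen. MAT2B, the regulatory subunit of methionine adenosyltransferase, was lower in the knock-out over both harvests (log2 fold change -0.40, adjusted p = 0.00156 by edgeR), and SETD6, a methyltransferase of non-histone proteins, was higher (0.28, adjusted p = 0.00453). MTR, methionine synthase, was 0.30 higher (log2) in the knock-out at the final harvest (adjusted p = 0.0089). RIOX1, a jumonji oxygenase of ribosomal protein, had 4.08, 4.65 and 4.93 CPM in wild-type initial and 7.03, 7.74 and 7.22 CPM in wild-type final libraries, and 5.15, 5.89 and 5.69 against 5.89, 4.67 and 6.15 CPM in the knock-out. It rose by 0.69 over time in the wild type (adjusted p = 0.0032), and the interaction was -0.69 (adjusted p = 0.0816).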
